A study of Mus musculus with 24 samples.

Results

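STAT6 loss was examined in macrophages that received IL-4 and rosiglitazone (RSG) together. The comparison set 3 arrays of Stat6 knockout (KO) mice, mice 4, 5 and 6, against 3 arrays of wild-type (WT) mice, mice 1, 2 and 3. These were chosen by their labels and made up 6 of the 24 arrays of the study. Both groups were bone marrow-derived macrophages. The study text names C57Bl/6 for the WT mice and does not state the background strain of the Stat6-/- mice. The KO cultures came from Stat6-/- animals, which lack the gene in every cell of the marrow and not in macrophages alone. M-CSF (20 ng/ml) was given to all cultures during the 10 days of growth, and both compared groups also had IL-4 at 20 ng/ml and RSG at 1 µM. The other 18 arrays carried the same 6 replicate numbers. They were cultures with IL-4 and vehicle (DMSO and ethanol), with RSG and no IL-4, or with vehicle and no IL-4. The question behind this comparison was how cells given IL-4 and a PPARγ ligand differ when STAT6 is missing. Each group held 1 array per replicate number. Mice are numbered here by the replicate numbers of the sample titles, which do not name a mouse. That cultures with the same number came from 1 mouse is an assumption. The p-values rest on the spread between replicates within groups, pooled over all 8 groups of the 24 arrays. Cultures with the same number were treated as independent.

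Binding of IL-4 to its receptor leads Janus kinases to phosphorylate STAT6, which then enters the nucleus. In macrophages it switches on the alternative activation program, with arginase, resistin-like and chitinase-like proteins and lectin receptors. PPARγ is a nuclear receptor that pairs with RXR, binds fatty acid ligands and drugs such as RSG, and switches on genes of lipid uptake and storage. Genes that type I interferons induce carry a different element in their promoters, the interferon-stimulated response element.

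Expression was measured on Affymetrix mouse whole-genome arrays. Values are log2 ratios in which each probe set is scaled to its median over the arrays, so levels of different genes cannot be ranked and no absolute level is known. A change is the KO mean minus the WT mean on this scale, ± SE from limma. Genes that passed a Benjamini-Hochberg adjusted p of 0.05 and moved by 1.5-fold or more were called. Correlations between the arrays over all probe sets were 0.299 to 0.326 within KO and 0.362 to 0.390 within WT, against -0.01 to 0.06 between the genotypes. The median over all genes lay 0.20 lower in KO, and the array medians averaged -0.136 in KO and 0.0404 in WT. Counts in several lists below are therefore also given after the arrays were rescaled.

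The targeted gene followed the labels. Stat6 was at -1.84, -1.81 and -1.56 in KO, against 0.93, 1.01 and 1.15 in WT, with a change of -2.77 ± 0.12 (limma adjusted p = 5.26e-11). A second Stat6 probe set gave -1.90, -1.60 and -1.64 in KO and 0.81, 1.14 and 1.08 in WT. Whether the probes fall inside the deletion was not examined.

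Of 18193 genes tested, 3762 were called (20.7%), 1188 of them higher in KO (6.53%) and 2574 lower (14.1%). Counts within each gene list below stand against these shares. Higher calls were 28.95% of the called probe sets as deposited, 40.46% after quantile normalization and 45.16% once array medians were set to 0. By gene, 6.18% were higher and 8.7% lower after quantile normalization, and 7.93% higher and 9.67% lower after centring. The arrays of the genotypes did not overlap for 2168 genes in the higher direction (11.9%) and 4829 in the lower (26.5%).

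Alternative activation genes fell in KO. Of 29 measured, 18 were called lower and 3 higher, with a median change of -1.96, against -0.20 over all genes. Arg1, which encodes arginase, was at -0.74, 0.49 and 0.74 in KO, against 8.38, 8.42 and 8.45 in WT. Retnla, a resistin-like secreted protein, was at 0.32, 0.45 and 0.47 in KO, against 7.57, 7.61 and 7.56 in WT. For both genes the WT arrays lay close together and far above all KO arrays, with changes of -8.25 ± 1.00 for Arg1 and -7.16 ± 1.29 for Retnla (limma adjusted p = 6.99e-06 and 0.000404).

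The same direction held for other members with known roles in IL-4-treated macrophages. Mrc1, the mannose receptor CD206, was at -0.97, -0.69 and -0.61 in KO and 1.04, 0.94 and 1.22 in WT. The lectin receptor Mgl2 fell by 4.27 ± 0.74 and the transcription factor Irf4 by 3.08 ± 0.77. Slc7a2, a transporter of cationic amino acids that supplies arginase, fell by 5.46 ± 0.93, and the eosinophil-attracting chemokine Ccl24 fell by 4.79 ± 0.66. Chil4, a chitinase-like protein, fell by 4.45 ± 0.93. Its neighbour Chil3 (Ym1) was at 0.33, 0.75 and 0.60 in KO and 1.54, 1.54 and 1.57 in WT, and did not pass the test (-0.99 ± 0.36, limma adjusted p = 0.0547). The arrays of Chil3 did not overlap between the genotypes. Ccl17, a chemokine of the same program, had overlapping arrays and no call (-0.36 ± 0.79).

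3 list members went the other way. Alox15, the 12/15-lipoxygenase, was at 4.59, 4.95 and 4.15 in KO, against -1.17, -0.71 and -1.40 in WT, a change of 5.66 ± 0.91 (limma adjusted p = 0.000132). Ccl22, a chemokine that attracts Th2 cells, rose by 2.47 ± 0.61 and the monocyte chemokine Ccl7 by 1.52 ± 0.52. The call of Ccl22 was lost after quantile normalization, and that of Ccl7 without mouse 1, 2, 3, 4 or 5.

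**Figure D1:**
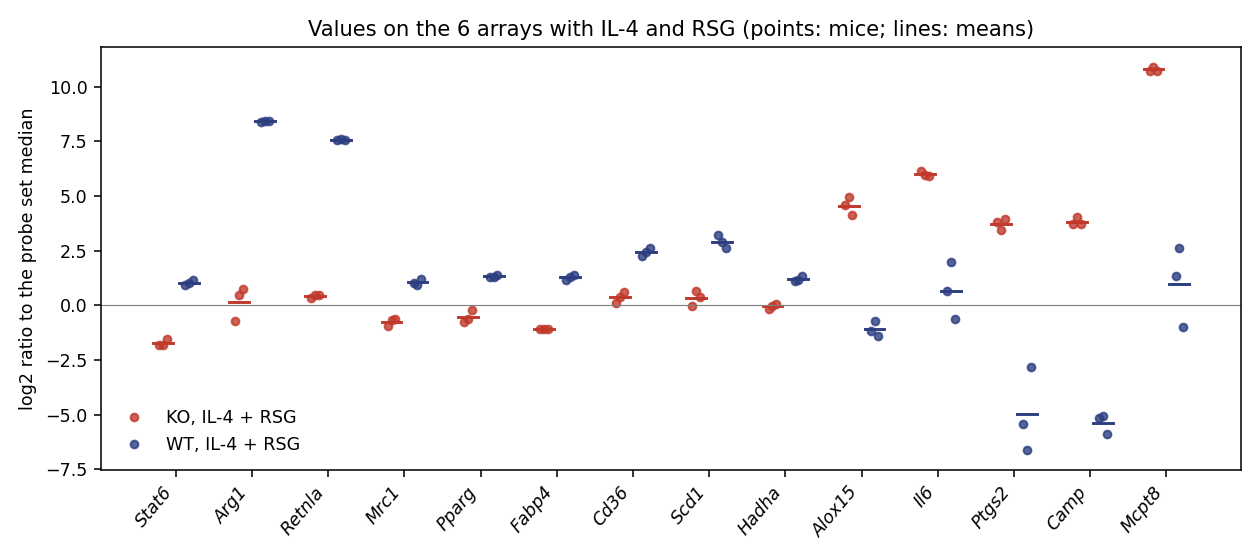
Log2 ratio (y axis) of 14 genes (x axis) on the 6 arrays with IL-4 and RSG, KO in red to the left of WT in blue, with a point per mouse and a line at each mean. Stat6, Arg1, Retnla, Mrc1, Pparg, Fabp4, Cd36, Scd1 and Hadha are lower on every KO array than on any WT array, and Alox15, Il6, Ptgs2, Camp and Mcpt8 are higher.

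The genes with the largest falls included members of this program and genes of unrelated families. Rnase2a, an eosinophil-associated ribonuclease, was at -3.07, 0.94 and 0.77 in KO and 9.99, 10.12 and 10.10 in WT. It belongs to a family of near-identical copies, so which copy was measured is uncertain. Ddx4, an RNA helicase known from germ cells, was at -1.03, -0.37 and -0.69 in KO and 8.12, 8.44 and 8.21 in WT. Il31ra, a subunit of the IL-31 receptor, fell by 7.43 ± 0.97, and the changes were -7.18 ± 0.64 for the potassium channel gene Kcnd3, -7.16 ± 1.09 for the sodium channel gene Scn3a and -6.98 ± 0.41 for Tmem26, a transmembrane protein gene. All of these were also called lower in KO with IL-4 and vehicle, with changes of -10.08 for Rnase2a, -6.64 for Ddx4, -7.78 for Il31ra, -8.21 for Kcnd3, -6.49 for Scn3a and -7.17 for Tmem26. The calls of Rnase2a, Ddx4, Kcnd3 and Tmem26 were lost in a fit that let the variance follow the mean.

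Promoter windows are shown for 3 genes of this program that fell, because each holds the spaced palindrome that STAT6 is known to bind, TTC and GAA with any 4 bases between them. The windows run 250 bases before to 50 bases after the start site, from RefSeq on GRCm38.p6, and the match is in capitals. Retnla lies at chr16:48842359-48842658, Pdcd1lg2, the immune checkpoint ligand PD-L2, at chr19:29410669-29410968 and Itgax, the integrin CD11c, at chr7:128129300-128129599, all on the plus strand.
Retnla: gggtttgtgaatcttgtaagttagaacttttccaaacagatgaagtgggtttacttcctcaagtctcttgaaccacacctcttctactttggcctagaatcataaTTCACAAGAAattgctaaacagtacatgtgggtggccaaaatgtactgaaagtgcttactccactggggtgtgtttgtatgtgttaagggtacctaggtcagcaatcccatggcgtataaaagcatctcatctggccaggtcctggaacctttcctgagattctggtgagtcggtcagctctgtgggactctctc
Pdcd1lg2: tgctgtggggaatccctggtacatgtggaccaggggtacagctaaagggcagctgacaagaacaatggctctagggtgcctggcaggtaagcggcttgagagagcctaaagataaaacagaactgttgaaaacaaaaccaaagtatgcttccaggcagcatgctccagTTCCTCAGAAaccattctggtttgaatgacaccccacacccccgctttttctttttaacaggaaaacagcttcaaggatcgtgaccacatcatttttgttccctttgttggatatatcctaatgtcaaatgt
Itgax: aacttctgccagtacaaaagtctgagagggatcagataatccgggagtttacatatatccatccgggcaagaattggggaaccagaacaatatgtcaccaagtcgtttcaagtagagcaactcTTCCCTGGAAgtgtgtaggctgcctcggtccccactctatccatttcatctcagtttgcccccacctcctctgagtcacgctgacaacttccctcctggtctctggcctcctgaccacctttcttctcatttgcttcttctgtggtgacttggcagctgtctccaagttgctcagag

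Pdcd1lg2 fell by 2.91 ± 0.34 and Itgax by 3.52 ± 0.36 in KO. Of the 18 alternative activation genes with a window, 6 held this palindrome (33.3%), against 6.94% of 14452 measured genes with a window and 6.95% of all 32851 windows. Among all genes called lower in KO the share was 7.15%, and among those called higher it was 6.59%. It was 15.8% among the 50 largest falls and 10.0% among the 50 largest rises. Of 20 interferon-stimulated genes with a window, described below, 4 held it (20.0%). The 6 alternative activation genes include Ccl17, which was not called. The palindrome with 3 bases between TTC and GAA was also searched, and 3 of the 18 held it (16.67%), against 8.57% of measured genes. A PPARγ element, AGGTCA repeated after 1 base, was in 0 of the 18 and in 0.05% of measured genes. Both strands were searched and matches that overlap another motif were kept. A match is a description of the letters in this window.

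Pparg and part of its axis were lower in KO, with RSG present in both groups. This comparison does not measure the response to RSG, and values with vehicle are given further below. Pparg itself was at -0.75, -0.60 and -0.23 in KO, against 1.31, 1.31 and 1.38 in WT, a change of -1.85 ± 0.24 (limma adjusted p = 1.64e-05). Ppargc1b, a coactivator of nuclear receptors and mitochondrial genes, fell by 1.16 ± 0.15. In the list of PPARs, RXRs and coregulators 6 of 18 genes were lower and 0 higher, with a median of -0.58. Over all genes the shares were 14.1% lower and 6.53% higher. The RXR gene Rxra (1.16 ± 0.67) and the receptor gene Ppard (0.07 ± 0.66) were not called. Cebpa and Cebpb, factors that act beside PPARγ in fat cell development, fell by 0.74 ± 0.12 and 0.79 ± 0.13, calls that were lost after centring for Cebpa and after quantile normalization for Cebpb. The count of 6 was 4 after either rescaling. Med1, a Mediator subunit, was called at -1.88 ± 0.67, a call lost without mouse 1, 2, 3, 5 or 6, and its change turned to 0.15 when its probe sets were averaged.

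Among genes of lipid uptake and storage, 9 of 23 were lower and 3 higher, with a median of -0.63. The lower count was 7 after either rescaling. Fabp4, a fatty acid carrier and classic PPARγ target, was at -1.07, -1.10 and -1.07 in KO and 1.14, 1.28 and 1.41 in WT. Cd36, the fatty acid and oxidized lipoprotein receptor, was at 0.09, 0.40 and 0.63 in KO and 2.27, 2.43 and 2.60 in WT. No KO array reached a WT array for either gene, and the changes were -2.36 ± 0.20 and -2.06 ± 0.20 (limma adjusted p = 9.43e-08 and 4.53e-07). Olr1, the receptor LOX-1, fell by 3.94 ± 0.61, the stearoyl-CoA desaturases Scd2 and Scd1 by 2.94 ± 0.41 and 2.58 ± 0.73, and Hilpda, a lipid droplet protein, by 2.75 ± 0.22. The call of Scd1 was lost without mouse 1 or 2. Plin2, which coats lipid droplets, fell by 0.69 ± 0.13, a call lost after quantile normalization and after centring.

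Other genes of the list were not called or were higher in KO. Angptl4, a secreted lipase inhibitor, was at 1.10, 1.77 and 1.53 in KO and 1.81, 2.05 and 1.96 in WT, and did not pass the test (-0.47 ± 0.56, limma adjusted p = 0.622). Pdk4, the kinase that inhibits pyruvate dehydrogenase, overlapped between the genotypes (-0.32 ± 1.01). The triglyceride-synthesis genes Dgat2 and Dgat1 rose by 1.71 ± 0.51 and 1.08 ± 0.28, and Fabp3, the heart-type fatty acid carrier, rose by 1.44 ± 0.18. The call of Dgat2 was lost without mouse 2, 4 or 5, and the Fabp3 change turned to -0.47 on its probe set with the highest mean.

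Genes of fatty acid oxidation, mitochondrial and peroxisomal, were lower in KO. Of 22 genes, 17 were called lower and 0 higher, with a median of -0.85. Hadha, a subunit of the trifunctional protein, fell by 1.25 ± 0.11, the thiolase Acaa2 by 1.21 ± 0.12 and Etfa, which passes electrons from the pathway to the respiratory chain, by 1.27 ± 0.17. Cpt1a, the carnitine transferase that admits fatty acids to mitochondria, fell by 1.10 ± 0.17. Hadha was at -0.18, -0.03 and 0.06 in KO, against 1.12, 1.16 and 1.32 in WT. The count was 9 after quantile normalization and 11 after centring, against 17 as deposited. LXR targets had 7 of 15 lower, among them the cholesterol exporter Abcg1 (-1.83 ± 0.23), and 2 higher, the apolipoprotein genes Apoe (1.99 ± 0.19) and Apoc2 (1.52 ± 0.15). The lower count of LXR targets was 6 after either rescaling.

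Amino acid and ER stress response genes were lower in 12 of 20 cases and higher in 0, with a median of -0.91. The lower count was 9 after either rescaling. Trib3, a pseudokinase induced by amino acid shortage, fell by 2.45 ± 0.31, the serine synthesis genes Psat1 and Phgdh by 2.17 ± 0.27 and 1.61 ± 0.38, and Asns, asparagine synthetase, by 1.96 ± 0.24. Genes of osteoclasts and macrophage fusion were lower in 7 of 17 cases and higher in 1, against 14.1% and 6.53% over all genes. Their lower count was 7 after quantile normalization and 6 after centring. Ctsk, the protease cathepsin K, was at 0.10, 0.33 and 0.00 in KO and 5.03, 4.97 and 5.12 in WT. Acp5, tartrate-resistant acid phosphatase, fell by 3.62 ± 0.53 and Ocstamp, a fusion protein gene, by 5.00 ± 1.11. Mmp9, a gelatinase on the same list, rose by 3.31 ± 0.57. Of the metalloproteinases, the collagenase Mmp13 fell by 3.29 ± 0.29 and the membrane-type enzyme Mmp14 rose by 3.77 ± 0.43.

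**Figure D2:**
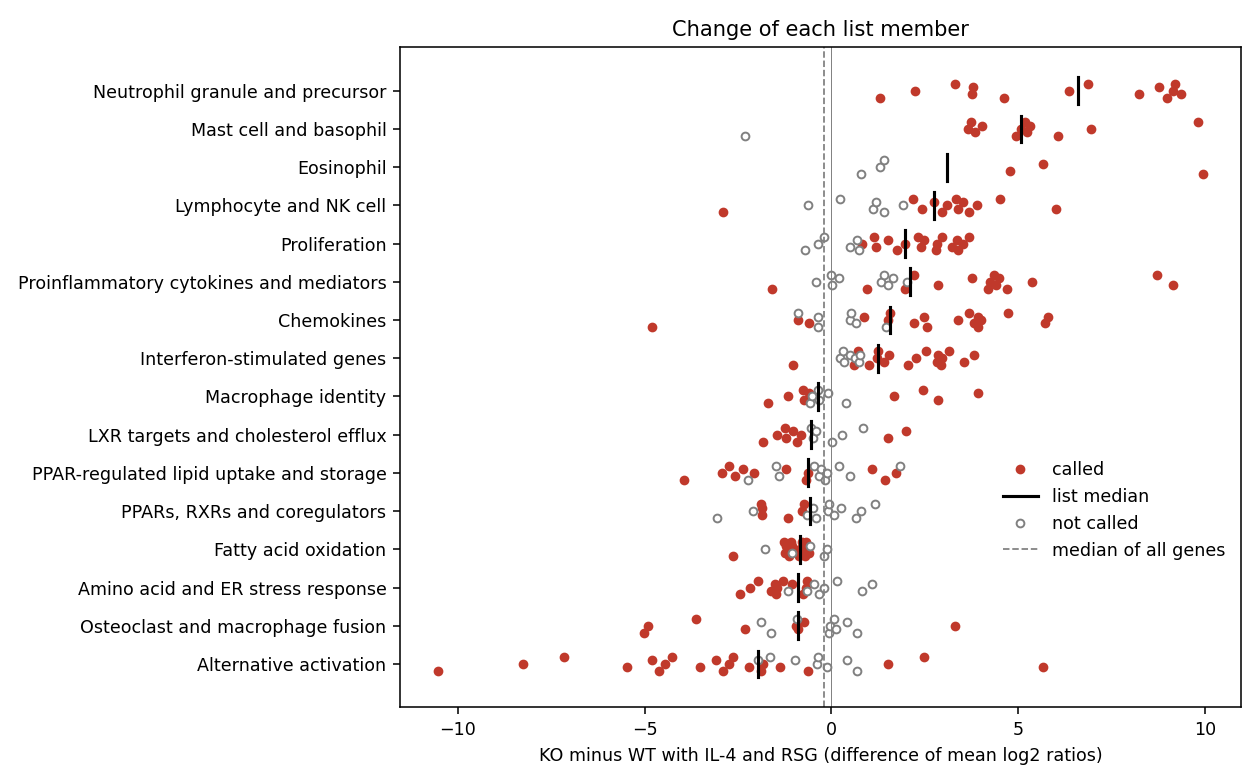
Change of each measured member (x axis, KO minus WT with IL-4 and RSG, in log2) of 16 gene lists (y axis), filled red where called and open where not, with a black bar at each list's median and a dashed line at the median of all genes, -0.20. Neutrophil, mast cell and basophil lists lie farthest to the right, with medians of 6.61 and 5.06, and alternative activation farthest to the left, at -1.96.

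Genes of granulocytes, which arise beside macrophages in marrow, were far higher in KO. All 14 neutrophil granule and precursor genes were called higher, with a median of 6.61. Camp, an antimicrobial peptide, was at 3.72, 4.02 and 3.71 in KO, against -5.14, -5.05 and -5.91 in WT. Ltf, lactoferrin, was at 3.54, 3.72 and 3.33 in KO and -6.64, -4.62 and -6.19 in WT. The lowest of these values is the floor of the deposited ratios, so the WT mean of Ltf is an upper limit. S100a9, a subunit of calprotectin, was at 2.04, 2.26 and 2.06 in KO while all 3 WT arrays stood at that floor, a ratio of 0.01, so its difference of 8.76 is a lower bound. The siderophore-binding protein gene Lcn2 had 1 WT array at the floor, so its rise of 9.13 ± 0.45 is a lower bound too. The protease gene Prtn3 rose by 8.24 ± 0.74. Fewer cells of a type and less RNA per cell cannot be told apart in these bulk cultures.

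Of 13 mast cell and basophil genes, 12 were higher and 0 lower, with a median of 5.06. Mcpt8, a basophil protease, was at 10.73, 10.93 and 10.74 in KO, against 1.35, 2.61 and -0.99 in WT, a change of 9.81 ± 1.10 (limma adjusted p = 3.07e-06). Hdc, which makes histamine, rose by 6.94 ± 0.83 and Fcer1a, a chain of the IgE receptor, by 6.05 ± 0.65. The calls of Mcpt8, Hdc and Fcer1a were lost in a fit that let the variance follow the mean. Tpsab1, a tryptase gene, was the member without a call, at -1.53, -0.07 and -1.69 in KO and 0.29, 1.64 and 1.72 in WT. Of the 6 measured eosinophil genes, 3 were higher, all granule proteins: Prg2 at 5.64, 6.23 and 5.87 in KO and -4.15, -2.66 and -5.26 in WT, Prg3 with a change of 5.67 ± 0.78 and Epx with 4.78 ± 0.90. The eosinophil surface genes Ccr3 (1.39) and Il5ra (0.79) were not called.

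Lymphocyte and NK cell genes were higher in 12 of 19 cases and lower in 1. Klrd1, an NK cell receptor chain, rose by 4.50 ± 0.36, Cd3d, a chain of the T cell receptor complex, by 3.53 ± 0.84, and Cd79a, a chain of the B cell receptor, by 3.67 ± 1.16. The call of Cd79a was lost after quantile normalization and without mouse 1, 3, 5 or 6. Gzma, granzyme A, fell by 2.91 ± 0.54 while granzyme C (Gzmc) rose by 6.01 ± 0.93. Proliferation genes were higher in 17 of 23 cases and lower in 0, with a median of 1.96. Mki67, the proliferation marker Ki-67, was at 1.09, 1.19 and 1.22 in KO and -2.67, -1.82 and -2.56 in WT.

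The list means show how far these markers separated the arrays. The mean log2 ratio of the neutrophil list was 3.09 to 3.38 on the KO arrays and -3.20 to -2.58 on the WT arrays, and that of the mast cell and basophil list 5.02 to 5.35 in KO and -0.27 to 1.12 in WT. The lymphocyte and NK cell list lay at 2.31 to 2.71 in KO and 0.08 to 0.26 in WT. With RSG and no IL-4, the neutrophil list was at -0.26 to 0.07 in KO and -0.67 to 0.14 in WT. On the compared arrays, with IL-4 and RSG, the proliferation list was at 0.65 to 0.98 in KO and -1.22 to -0.49 in WT. On the same arrays, the macrophage identity list was at -0.29 to -0.17 in KO and -0.60 to -0.41 in WT. Of its 15 genes, 4 were called higher, with Fcgr1, the high-affinity IgG receptor, at 3.93 ± 0.25, and 5 lower, with the integrin Itgam (CD11b) at -1.69 ± 0.18. The lower count was 2 after either rescaling. Of its other genes, Adgre1 (F4/80, -0.36 ± 0.12), Csf1r (the M-CSF receptor, 0.38 ± 0.12), Cd68 (-0.57 ± 0.10) and Lyz2 (-0.08 ± 0.10) were not called, although Adgre1, Csf1r and Cd68 differed by less than 1.5-fold at limma adjusted p of 0.0275, 0.0245 and 0.000294. Ratios to a median cannot show whether a marker was present or absent. The part of other cell types in the results was not tested.

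**Figure D3:**
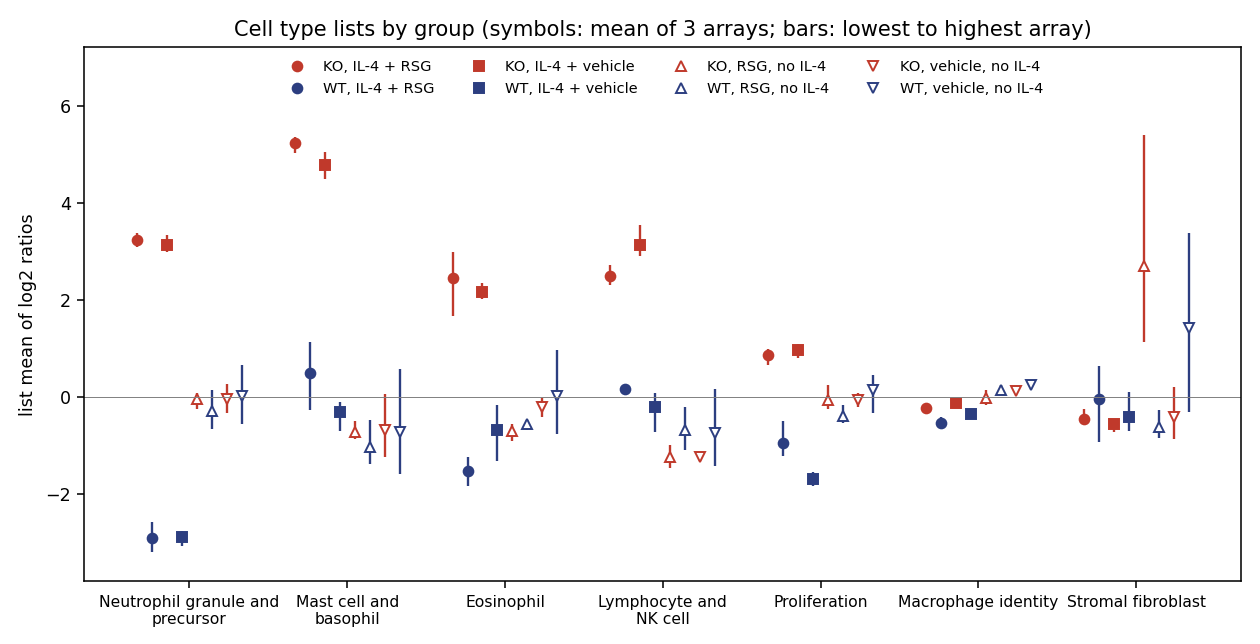
Mean log2 ratio (y axis) of 7 lists of cell type and proliferation markers (x axis) in the 8 groups, KO in red beside WT in blue, with symbols at the mean of 3 arrays and bars from the lowest to the highest array. KO arrays stand above WT arrays on the neutrophil, mast cell, eosinophil, lymphocyte and proliferation lists with IL-4, with RSG or with vehicle. The stromal list is highest with RSG and no IL-4 in KO, at 1.13 to 5.40.

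Inflammatory genes were higher in KO. Of 24 proinflammatory cytokines and mediators, 14 rose and 1 fell, with a median of 2.11. Il6 was at 6.16, 5.97 and 5.93 in KO, against 0.66, 1.97 and -0.62 in WT. Ptgs2 (COX-2), the inducible enzyme of prostaglandin synthesis, was at 3.81, 3.46 and 3.95 in KO and -5.43, -6.64 and -2.84 in WT. Both genes were higher on every KO array than on any WT array, and 1 WT array of Ptgs2 stood at the floor. Il1b rose by 4.20 ± 0.32, Tnf by 1.96 ± 0.25 and Il12b, a subunit of IL-12 and IL-23, by 4.70 ± 0.74. Nos2, the inducible nitric oxide synthase, overlapped between the genotypes (0.19 ± 0.73). Ptges, a prostaglandin E synthase, was the member that fell (-1.59 ± 0.55), and its call was lost without mouse 1, 2, 3 or 5 and after either rescaling. Of 25 chemokines, 15 rose and 3 fell, with rises of 4.71 ± 0.23 for Ccl3, 4.00 ± 0.36 for Cxcl2 and 5.79 ± 0.42 for Ppbp. Beside these counts stand the neutrophil and lymphocyte lists above, whose arrays were separated in the same direction.

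Of 18 Toll-like receptors and adaptors, 5 were higher and 2 lower, against 6.53% and 14.1% over all genes. Tlr2, a receptor of bacterial lipoproteins, rose by 4.23 ± 0.25 and its coreceptor Cd14 by 2.85 ± 0.16, whereas Tlr8 fell by 1.76 ± 0.18 and Tlr6 by 1.01 ± 0.21. Among antigen-presentation and costimulation genes, Cd86 rose by 2.67 ± 0.20 and the migration receptor Ccr7 by 5.63 ± 1.09. Cd274, the checkpoint ligand PD-L1, fell by 1.72 ± 0.15. Ccr7 is also expressed by dendritic cells and lymphocytes.

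Interferon-stimulated genes were higher in KO, but the difference between genotypes was smaller with RSG than with vehicle. With IL-4 and RSG, 17 of 25 were higher and 1 lower, with a median of 1.26. With IL-4 and vehicle, 25 of 25 were higher, with a median of 3.27, where 7.6% of all genes were called higher. The test of the difference between these differences called 17 of the 25 lower with RSG and 0 higher, against 68 of 18193 genes lower (0.374%) and 18 higher (0.0989%). The median of that difference was -2.19 for the list and 0.07 over all genes, and it was negative for 25 of 25 members, against 45.01% of all genes.

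Ifit1, an antiviral protein that binds viral RNA ends, shows the pattern on every array. With RSG it was at 1.71, 1.24 and 1.23 in KO, against -1.56, -1.50 and -1.31 in WT. With vehicle it was at 3.64, 3.95 and 4.11 in KO, against -2.96, -2.80 and -2.65 in WT. The KO arrays were thus lower and the WT arrays higher with RSG than with vehicle, and the genotype difference was 2.85 with RSG and 6.70 with vehicle (difference -3.85 ± 0.31, limma adjusted p = 9.77e-06). Ifit3, of the same family, was at 1.65, 1.31 and 1.32 in KO with RSG and at 3.94, 4.61 and 4.43 in KO with vehicle. Mx1, an antiviral GTPase, was at 1.30, 1.39 and 1.43 in KO with RSG and at 3.86, 4.44 and 4.25 in KO with vehicle.

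Cxcl10, a chemokine for activated T cells, had a genotype difference of 3.81 with RSG and 6.68 with vehicle (difference -2.87 ± 0.52, limma adjusted p = 0.0191). Irf7, the factor that amplifies interferon production, had 2.82 and 5.68 (difference -2.86 ± 0.47, limma adjusted p = 0.00904). Usp18, which removes the ubiquitin-like modifier ISG15 and restrains interferon signaling, was lower in KO with RSG, at 0.57, 0.30 and 0.63 against 1.61, 1.56 and 1.38 in WT. With vehicle it was higher, at 2.77, 2.88 and 3.27 in KO against 1.77, 1.72 and 1.43 in WT. Over the list, the median of RSG minus vehicle was -1.78 in KO and 0.36 in WT, with 25 of 25 members lower in KO and 22 of 25 higher in WT.

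Among interferons, their receptors and IRFs, 3 of 16 were higher and 2 lower in KO with RSG, against 6.53% and 14.1% over all genes. The lower count was 0 after quantile normalization and 1 after centring. Ifnb1 was at -0.43, 0.00 and -0.77 in KO and 0.33, 0.16 and -0.23 in WT (-0.49 ± 0.38), and Ifng at 2.52, 2.87 and 2.48 in KO and 0.62, 2.08 and 1.68 in WT (1.16 ± 0.97). Irf9, a DNA-binding factor of the interferon response, was the 1 member of this list whose genotype difference was called different, at 0.23 with RSG and 1.18 with vehicle (-0.95 ± 0.19, limma adjusted p = 0.0325). With RSG and no IL-4, 0 of the 25 interferon-stimulated genes were called by limma, and the median was -0.55. At an unadjusted limma p under 0.05 and a change of 1.5-fold or more, 0 were higher and 9 lower.

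The count of 17 depended on the setting. It was 6 after quantile normalization, 10 in a fit on the compared arrays alone and 9, 9, 17, 12, 6 and 7 without mouse 1, 2, 3, 4, 5 and 6, while the median difference stayed between -2.37 and -1.65 and all 25 members stayed negative in each of these fits.

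**Figure D4:**
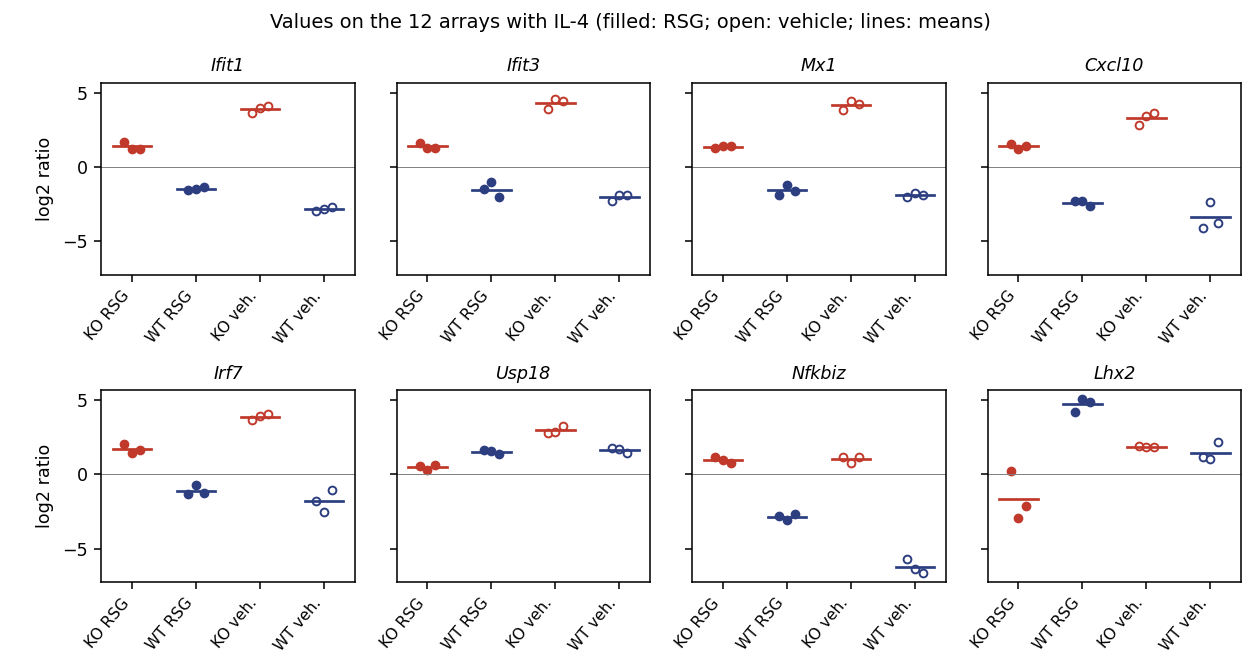
Log2 ratio (y axis) of 8 genes on the 12 arrays with IL-4, in the groups KO with RSG, WT with RSG, KO with vehicle and WT with vehicle (x axis), filled for RSG and open for vehicle, with a line at each mean. For Ifit1, Ifit3, Mx1, Cxcl10 and Irf7 the KO arrays lie lower with RSG than with vehicle. For Nfkbiz the KO arrays overlap and the WT arrays differ, and Lhx2 is highest in WT with RSG.

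Promoter windows of 3 genes with this pattern are shown because each holds the core of the interferon-stimulated response element, GAAA and GAAA with any 2 bases between them, on one of its strands. Ifit1 lies at chr19:34640639-34640938 and Ifit3 at chr19:34583279-34583578, both on the plus strand, and Cxcl10 at chr5:92348840-92349139 on the minus strand (RefSeq, GRCm38.p6, 250 bases before to 50 after the start). Matches are in capitals, and a match on the opposite strand reads TTTC, any 2 bases and TTTC.
Ifit1: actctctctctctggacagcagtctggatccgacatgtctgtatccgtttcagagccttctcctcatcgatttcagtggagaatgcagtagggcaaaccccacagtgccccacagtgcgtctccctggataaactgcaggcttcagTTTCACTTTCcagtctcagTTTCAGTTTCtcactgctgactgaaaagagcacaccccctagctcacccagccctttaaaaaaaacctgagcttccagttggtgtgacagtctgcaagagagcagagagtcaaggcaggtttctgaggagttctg
Ifit3: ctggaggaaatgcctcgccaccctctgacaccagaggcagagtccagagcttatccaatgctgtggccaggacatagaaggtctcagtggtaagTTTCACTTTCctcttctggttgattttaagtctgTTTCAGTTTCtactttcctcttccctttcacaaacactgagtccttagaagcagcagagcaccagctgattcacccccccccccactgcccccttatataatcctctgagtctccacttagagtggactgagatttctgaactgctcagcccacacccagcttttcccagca
Cxcl10: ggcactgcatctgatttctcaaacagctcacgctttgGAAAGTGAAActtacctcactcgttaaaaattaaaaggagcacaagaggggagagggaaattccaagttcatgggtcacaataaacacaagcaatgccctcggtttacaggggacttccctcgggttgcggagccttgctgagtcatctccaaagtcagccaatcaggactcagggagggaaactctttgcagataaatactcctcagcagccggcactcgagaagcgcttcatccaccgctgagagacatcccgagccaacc

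Of the 68 genes whose genotype difference was lower with RSG, 58 had a window and 22 of these held this core (37.9%), against 3.63% of the 14452 measured genes with a window and 3.44% of all windows. In the interferon-stimulated list, it was 14 of 20 (70%). Of the 15 windows of genes whose difference was higher with RSG, 0 held it. Among all genes called in KO against WT with RSG, the share was 5.62% of those higher and 2.98% of those lower. Arg1 and Mx1 had no window in the table.

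**Figure D5:**
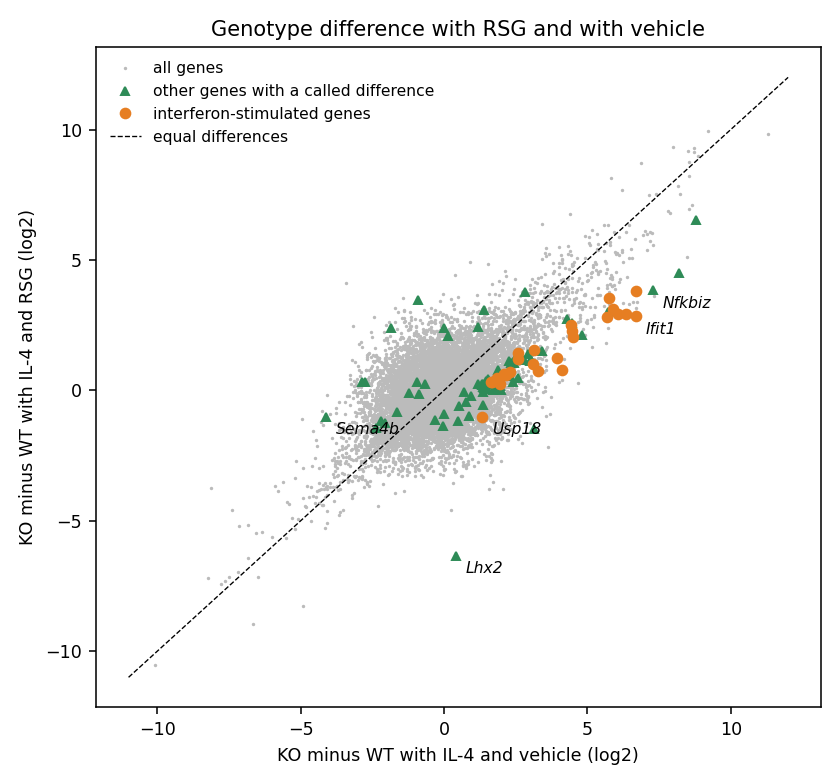
Genotype difference of each of 18193 genes with IL-4 and RSG (y axis) and with IL-4 and vehicle (x axis), both KO minus WT in log2, with interferon-stimulated genes in orange, other genes with a called difference between the axes in green and a dashed line of equal values. The 25 interferon-stimulated genes all lie below the line, and Lhx2 lies far below it.

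Over all 18193 genes, few had a genotype difference that was called changed by RSG. In all, 86 genes were called (0.473%). These include the 17 called members of the interferon list, all of them lower with RSG. Of the 68 lower ones, 33 were called higher in KO both with RSG and with vehicle, 27 were called higher with vehicle alone, 2 were called higher with vehicle and lower with RSG, and 6 were called lower with RSG alone. Lhx2, a LIM homeobox factor, was the largest: it was at 0.21, -2.96 and -2.14 in KO with RSG, 4.21, 5.07 and 4.87 in WT with RSG, 1.91, 1.85 and 1.85 in KO with vehicle and 1.17, 1.06 and 2.17 in WT with vehicle. The WT arrays with RSG stood above all others, and the difference was -6.75 ± 1.18 (limma adjusted p = 0.0149). Nfkbiz, an atypical inhibitor of NF-κB, had KO means of 0.99 with RSG and 1.04 with vehicle, while the WT means were -2.84 and -6.25 (difference -3.47 ± 0.39). Axl, a receptor for apoptotic cells, had the same form, with KO means of 0.35 and 0.27 and WT means of -2.66 and -5.45. The Axl difference turned to 1.37, with no call, on its other probe set. For Nfkbiz, 1 WT array with vehicle stood at -6.64, at or next to the floor of the ratios. The Nfkbiz call was lost with a floor of 0.05 and on its probe set with the highest mean. Sema4b, a semaphorin, was among the higher ones: its genotype difference was -1.01 with RSG and -4.11 with vehicle.

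Lipid genes had no such call. For the list of lipid uptake and storage, limma called 0 of 23 differences between the RSG and vehicle comparisons. At an unadjusted limma p under 0.05 and a difference of 1.5-fold or more, 1 was higher and 3 lower. The genotype difference of Fabp4 was -2.36 with RSG and -2.03 with vehicle (difference -0.32 ± 0.28), that of Cd36 was -2.06 and -2.33 (0.27 ± 0.28) and that of Pparg was -1.85 and -2.28 (0.43 ± 0.34). Scd1, Olr1 and Acaa1b, a peroxisomal thiolase of fatty acid breakdown, had wider gaps with RSG, by -2.72 ± 1.03, -2.23 ± 0.86 and -2.21 ± 0.71, and did not pass the test (limma adjusted p = 0.483, 0.494 and 0.325). Scd1 averaged 0.34 in KO and 2.92 in WT with RSG, against 0.72 in KO and 0.58 in WT with vehicle. A missing call here does not show equal differences. Arg1 averaged 0.16 in KO with RSG and 3.45 in KO with vehicle, against 8.42 and 8.38 in WT (difference -3.33 ± 1.41, limma adjusted p = 0.571).

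Most calls with RSG were also made with vehicle, on arrays with the same 6 replicate numbers. Of the 1188 genes higher in KO with IL-4 and RSG, 894 were also higher with IL-4 and vehicle, which is 75.25% of the first list and 64.69% of the second, and of the 2574 lower, 2069 were shared (80.38% and 65.87%). With vehicle, 24.9% of all genes were called and 17.3% were called lower. With RSG and no IL-4, 20 genes were called (0.11%), 4 higher (0.022%) and 16 lower (0.0879%) in KO, and the change of Stat6 was -2.63. Of the lists named above, alternative activation, neutrophil, mast cell and basophil, lipid uptake and storage and fatty acid oxidation had 0 called there by limma. In that order, 4, 1, 4, 1 and 2 members moved by 1.5-fold or more at an unadjusted limma p under 0.05.

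The genotype difference with IL-4 and RSG differed from that with RSG alone for 2133 genes (11.7%), 808 higher (4.44%) and 1325 lower (7.28%). The largest higher ones were granulocyte genes, with 10.23 for Mcpt8, 10.15 for Prg2 and 9.11 for Ltf. The largest lower one was Rnase2a at -10.44. Fstl1, a secreted glycoprotein, and Pdgfra, a platelet-derived growth factor receptor of stromal cells, had -9.84 and -9.22. Beside these, the stromal list stood at 1.13 to 5.40 in KO with RSG and no IL-4, and at -0.85 to -0.27 in WT, and its part in these values was not tested.

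Receptor signalling and other macrophage functions moved in both directions. Of 17 genes of IL-4 receptor signalling and feedback, 3 were higher and 4 lower, against 6.53% and 14.1% over all genes. Cish, a feedback inhibitor of cytokine receptors, fell by 1.71 ± 0.22 and the kinase gene Jak1 by 1.85 ± 0.27, whereas Il4ra, the receptor chain itself, rose by 1.11 ± 0.18 and the inhibitor Socs3 by 3.54 ± 0.51. The call of Jak1 was lost on its probe set with the highest mean. Of 19 scavenger and efferocytosis receptors, 6 were higher and 4 lower, against the same shares over all genes. Stab1 rose by 3.74 ± 0.23 and Cd5l by 2.82 ± 0.18, and Mfge8, a bridge to dying cells, fell by 1.93 ± 0.17. In eicosanoid synthesis, Alox5, the 5-lipoxygenase of leukotriene synthesis, rose by 3.18 ± 0.32 and Pla2g7, which breaks down platelet-activating factor, fell by 1.84 ± 0.20.

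Of 101 measured genes within 5 Mb of Stat6 on chromosome 10, 6 were higher and 14 lower in KO, against 6.53% and 14.1% over all genes. Myl6b, a myosin light chain gene, rose by 2.91 ± 0.39 and Rnf41, a ubiquitin ligase gene, fell by 1.72 ± 0.32. Rnf41 was also called lower with RSG and no IL-4 (-2.03), and its call with IL-4 and RSG was lost on the probe set with the highest mean.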

How the data were processed

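Expression in 24 macrophage cultures was read on Affymetrix arrays, with 1 array per culture. GCOS and GCRMA are the tools given in the submitters' processing notes. The authors deposited linear ratios: GC-RMA values scaled per chip to its median and per gene to its median. The ratio of 86.3% of probe sets had a median of 1 over the 24 arrays, and a further division by vehicle controls that the study's methods name was not found in the values. The lowest ratio was 0.01, reached by 11 values on the 6 compared arrays.

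Ratios were taken to log2 and fitted with limma 3.58.1 in R 4.3.3 (lmFit and eBayes) on 45037 probe sets after 64 control probe sets were left out, with 24 arrays in 8 groups. All p-values were two-sided and adjusted over all probe sets by Benjamini-Hochberg. GEO's platform annotation gave 34945 probe sets 1 symbol, 932 several and 9160 none. For each of 18193 genes the probe set with the largest SD over the 18 arrays outside the comparison was used, and not one of the cross-hybridising _x_at class where another existed. Differences between genotype differences were contrasts of the same fit and did not pair arrays by mouse. The scripts were tested on simulated data. Promoter windows came from RefSeq (GRCm38.p6).

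Named genes were Stat6 and genes the study text names, the 12 largest called non-overlapping changes in each direction, up to 5 called members per list and direction, and the 8 largest called differences per interaction and direction. Uncalled members were named where they define a list. Chil4, Mgl2, Irf4, Cpt1a, Il1b, Tnf, Irf7 and Irf9 fall outside this rule and were chosen after their values were seen. The compared arrays, gene lists and rules were chosen with earlier results of these data known. Alternatives were quantile normalization, median centring, a variance trend, the compared arrays alone, the methods' t-test, a random mouse block, a median filter, a floor, other probe set choices, leaving out each mouse, and leaving out 2 arrays with high stromal markers. The number of arrays limits the precision.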

Additional observations from a re-analysis of the deposited data

Results flagged for a closer look

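These results are listed because the genotype difference itself differed between conditions, by a limma contrast of the differences. Between IL-4 with RSG and IL-4 with vehicle, 163 probe sets were called, and between IL-4 with RSG and RSG alone, 5041 were called.

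Against IL-4 with vehicle, the KO minus WT difference was lower with RSG for the interferon-stimulated genes Ifit1 (-3.85), Ifit1bl1 (-3.69), Ifit3 (-3.41), Mx1 (-3.11), Cxcl10 (-2.87), Ifit2 (-2.75) and Usp18 (-2.35). It was also lower for Lhx2 (-6.75), Enpep (-4.64), Nfkbiz (-3.47), Axl (-2.71) and Fcgr4 (-0.93). It was higher for Smoc2 (4.40), Ccer1 (4.27), Gm29771 (3.20), Sema4b (3.10), Atg4b (3.09), Morn4 (2.38), Mfsd6 (1.93) and AI839979 (1.69). Of these 20 genes, Ifit1 and Ifit3 were the 2 whose call was kept in every alternative run.

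Against RSG without IL-4, the difference was higher for the granulocyte and lymphoid genes Mcpt8 (10.23), Prg2 (10.15), Ltf (9.11), Camp (9.05), Ngp (9.00), Lcn2 (8.96), Klrc1 (8.93) and Hp (8.67). It was lower for Rnase2a (-10.44), Fstl1 (-9.84), Pdgfra (-9.22), Ccbe1 (-8.59), Ddx4 (-8.55), Dclk1 (-8.51), Srpx2 (-8.38) and Col5a2 (-8.29). Of these 16 genes, 10 kept their call in every alternative run. The call was lost in 7 runs for Dclk1, 5 for Col5a2, 2 each for Ccbe1 and Mcpt8 and 1 each for Ddx4 and Rnase2a. Ccbe1, Dclk1 and Col5a2 were not called in KO against WT with IL-4 and RSG (limma adjusted p = 0.0504, 0.241 and 0.182). The stromal marker list stood at 1.13 to 5.40 in KO with RSG and no IL-4. All 16 calls were kept when 2 arrays with high stromal markers were left out. The KO arrays with RSG alone that stayed in that fit still lay above the WT arrays (-0.85 to -0.27) on this list. The part of stromal markers in the values of Fstl1, Pdgfra, Ccbe1, Dclk1 and Col5a2 was not tested otherwise.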

How the results depend on the processing

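The 9003 called probe sets of KO against WT with IL-4 and RSG became 6194 after quantile normalization, 7545 after centring, 6484 with the compared arrays alone, 6199 with the methods' t-test and 7664 to 8905 without 1 mouse. Of 202 named genes called there, 139 kept their call in every alternative. The 163 calls against IL-4 with vehicle became 75 with the compared arrays alone, 43 after quantile normalization and 30 to 132 without 1 mouse. The 5041 calls against RSG alone became 3238 with the compared arrays alone and 3086 to 3890 without 1 mouse. The 10920 calls with IL-4 and vehicle became 7018 after quantile normalization. With RSG and no IL-4, 45 calls became 0 with the compared arrays alone, 2 with the t-test, 90 after quantile normalization, 25 without the 2 stromal-high arrays and 14 to 51 without 1 mouse. With neither, 49 calls became 0 with the compared arrays alone, 0 with the t-test, 78 with the median filter, 78 with a variance trend, 196 after quantile normalization and 32 to 45 without 1 mouse. The cause was not tested.

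Some directions turned. Without 1 mouse, Nos2 ranged between -0.44 and 0.83 (-0.25 without mouse 3) and Pdk4 between -1.01 and 0.89, the highest without mouse 4. With probe sets averaged, Atg4b was -0.070 and Med1 0.15. On the probe set with the highest mean, Atg4b was -0.10, Fabp3 -0.47, Ifnar1 -0.11, Msr1 0.071, Sc5d 0.0059 and the Axl difference between RSG and vehicle 1.37.

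KO and WT mice share no number, so in KO against WT the mouse number could enter only as a random replicate block. Each number had all treatments, so the differences between conditions could also take a fixed effect of that number. That fit was not run. With the random block 9004 probe sets were called for KO against WT with IL-4 and RSG. The calls were 165 against IL-4 with vehicle and 5113 against RSG alone. Deviations of arrays with the same number correlated at 0.0106 on average, and 0 of 36 pairs were over 0.1.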

Other observations

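Further gene groups were measured with IL-4 and RSG, where 6.53% of all genes were called higher and 14.1% lower. Of 20 genes of glycolysis and the hypoxia response, 7 were lower and 0 higher in KO, among them the glucose transporter Slc2a1 (-1.27 ± 0.20) and Ldha, lactate dehydrogenase A (-0.93 ± 0.15). The lower count was 4 after quantile normalization and 6 after centring. Of 14 Fcγ receptors and complement genes, 5 were higher and 4 lower, and the lower count was 2 after either rescaling. The complement genes C1qa and C1qc rose by 1.66 ± 0.17 and 1.23 ± 0.12. In MHC class II presentation 3 of 12 were higher, with H2-Oa at 2.98 ± 0.32, and 1 lower, the lysosomal reductase Ifi30 at -1.95 ± 0.14. Of 19 sterol synthesis genes 4 were lower and 0 higher, with a median of -0.16, against 14.1% lower and a median of -0.20 over all genes. After centring 2 were lower and 1 higher. Dhcr7, the last enzyme of the pathway, was at -2.47 ± 0.25.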
